A study of Homo sapiens with 9 samples.

Results

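The genes described here are 10 regulators of the G1 phase of the cell cycle: the cyclins CCND1, CCND3, CCNE1 and CCNE2, the cyclin-dependent kinases (CDKs) CDK2, CDK4 and CDK6, the CDK inhibitor CDKN1B, and the transcription factors E2F1 and E2F2. They were picked by gene name, and each name matched 1 of the 37118 genes listed. RNA was sequenced from A375, a long-established human melanoma line known to carry mutant BRAF and labelled wild type in genotype here. The 9 libraries hold 3 from cells without metformin (0 mM), 3 from cells at 20 mM and 3 from cells at 40 mM, with a length of exposure not stated in the sources used here. Metformin is a biguanide drug for type 2 diabetes that is known to inhibit complex I of mitochondria. All groups come from this 1 line, and since no label states separate cultures, a p-value covers the spread of these libraries alone, which may be technical.

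In G1, D-type cyclins pair with CDK4 or CDK6 and begin to phosphorylate the retinoblastoma protein RB, which otherwise holds the E2F factors in check. Released E2F factors switch on the genes of DNA synthesis, together with the E-type cyclins, which pair with CDK2 and complete the phosphorylation of RB. CDKN1B encodes p27, which blocks cyclin E-CDK2 complexes and is removed as cells enter S phase. In melanoma with mutant BRAF, signalling through ERK is known to keep cyclin D1 high, and CDK4 and CDK6 are drug targets in this and other cancers.

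Library totals ran from 65738242 to 75629413 counts. Replicate 3 of 40 mM was the shallowest and stood apart on the second principal component, at -22.6 against 17.7 and 15.2 in the other 40 mM libraries. Genes of the mitochondrial genome held 4.36% of its counts, and 3.01% and 3.27% of those of replicates 1 and 2. Of 9 markers of the melanocyte lineage, 5 had a mean under 1 FPKM, among them the pigment genes TYR, PMEL and MLANA, while SOX10 averaged 104, 97.7 and 85.5 FPKM at 0, 20 and 40 mM. Of 10 markers of other cell types, 8 had a mean under 1 FPKM. The summed level of those 10 was 15.0 to 15.7 FPKM at 40 mM, 10.7 to 12.1 at 20 mM and 10.8 to 11.2 at 0 mM, most of it from KRT14 and LUM. Its part in the results was not tested. Without replicate 3 of 40 mM all 10 regulators were still called at 40 against 0 mM in the same direction, and its effect is given beside the genes in which it stood out.

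Levels are FPKM, fragments scaled to gene length and library depth. Comparing them between genes rests on the gene lengths used, which were not stated in the sources used here. The counts and FPKM imply 2718 to 2780 bases for CCNE1 and 13492 to 13793 for CDK6. Whether these match the transcripts present was not tested. Changes are log2 fold changes ± SE from the quasi-likelihood test of edgeR, run on counts, with n = 3 per dose. A gene was called at a Benjamini-Hochberg adjusted p under 0.05 over the 12394 genes with a mean of at least 1 FPKM, which included all 10 regulators. The words rose and fell are kept for calls. All 10 regulators were called at 40 against 0 mM, 4 higher and 6 lower, in a comparison that called 56.2% of all tested genes, 28.8% higher and 27.4% lower. The count was 9, without CCND1, with no filter on low levels and with only the 6 libraries compared. It was also 9 without replicate 2 or 3 of 0 mM or replicate 1 or 2 of 40 mM. A filter at 5 FPKM, which does not test E2F2 and CCNE2, gave 8. At 20 against 0 mM, 7 were called, 3 higher and 4 lower, against 31.6% of all tested genes, 16.3% higher and 15.2% lower. That count was 4 without replicate 2 or 3 of 0 mM, without replicate 1 of 20 mM, or with no filter on low levels. Between 40 and 20 mM, 5 were called, 2 higher and 3 lower, against 29.3% of all tested genes, 14.3% higher and 15.1% lower. The FPKM of the doses did not overlap for 8 of the 10 at 20 against 0 mM (50.5% of all tested genes), for 9 at 40 against 0 mM (61.1%) and for 6 at 40 against 20 mM (43.9%). The median log2 fold change of the 10 was -0.19 at 40 against 0 mM and -0.04 at 20 against 0 mM, and that of all tested genes was 0.00 in both. The E cyclins, the E2F factors, CDK2 and CDK4 were the 6 that fell at 40 mM, and the D cyclins, CDK6 and CDKN1B were the 4 that rose. In bulk RNA, fewer cells in the phase that transcribes a gene and less of its RNA per cell cannot be told apart.

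**Figure D1:**
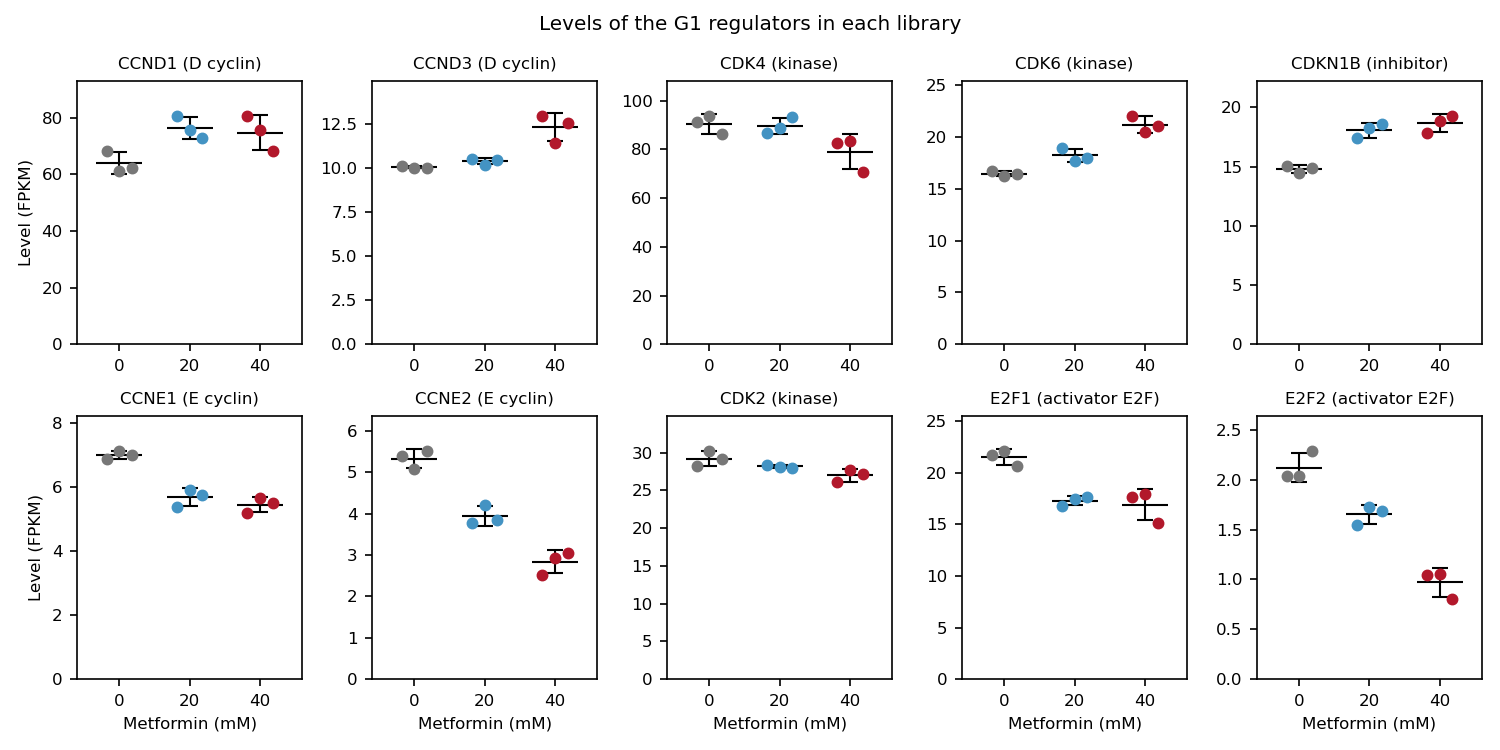
Level in FPKM (vertical axis, from 0) of each of the 10 genes at 0, 20 and 40 mM metformin (horizontal axis). Points are libraries in order of replicate number, bars the mean ± SD of 3 libraries. The E cyclins and E2F factors lie lower at both doses than at 0 mM, and CDK6 and CDKN1B lie higher, with no overlap of their libraries.

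The regulators differed widely in FPKM. In untreated cells the order of mean levels was CDK4 (90.4 FPKM), CCND1 (63.9), CDK2 (29.2), E2F1 (21.5), CDK6 (16.5), CDKN1B (14.8), CCND3 (10.03), CCNE1 (7.00), CCNE2 (5.33) and E2F2 (2.12). No neighbours in this order overlapped between their libraries. At 20 mM the levels of CDK6, CDKN1B and E2F1, at 18.2, 18.1 and 17.3 FPKM, overlapped with their neighbours. At 40 mM, CDK4 (79.0 FPKM) overlapped with CCND1 (74.8), and CDKN1B (18.7) with E2F1 (16.9). In FPKM, E2F1 therefore stood above CDK6 and CDKN1B at 0 mM and below CDK6 at 40 mM, without overlap of the libraries in either case. By counts, which are not scaled to length, CDK6 lay above E2F1 at 0 mM too (16395 to 17302 against 4606 to 4932).

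Both D cyclins rose at 40 against 0 mM, CCND1 with overlap of its libraries, and only CCND1 rose at 20 against 0 mM. CCND1 encodes cyclin D1, the ERK-responsive partner of CDK4 and CDK6 (ENSG00000110092, chromosome 11, 69641156 to 69654474). Its levels were 68.3, 61.1 and 62.3 FPKM without metformin, 80.7, 75.6 and 72.8 at 20 mM, and 80.5, 75.5 and 68.3 at 40 mM. The 20 mM libraries all lay above those at 0 mM, while the lowest 40 mM library, replicate 3, overlapped with the highest at 0 mM. CCND1 rose at 20 against 0 mM by 0.25 ± 0.07 (adjusted p = 0.016) and at 40 against 0 mM by 0.19 ± 0.07 (adjusted p = 0.031). It was at -0.06 ± 0.07 between 40 and 20 mM (adjusted p = 0.53). The call at 20 mM was lost without replicate 2 (0.22, adjusted p = 0.069) or 3 (0.23, adjusted p = 0.057) of 0 mM or replicate 1 of 20 mM (0.21, adjusted p = 0.063), and with no filter (0.25, adjusted p = 0.053), within a range of adjusted p from 0.0015 to 0.069 over its alternatives. The call at 40 mM was lost without replicate 2 (0.16, adjusted p = 0.12) or 3 (0.17, adjusted p = 0.099) of 0 mM, without replicate 1 (0.14, adjusted p = 0.12) or 2 (0.19, adjusted p = 0.069) of 40 mM, with only the 6 libraries compared (0.19, adjusted p = 0.052) and with no filter (0.18, adjusted p = 0.11), within a range from 0.0028 to 0.12. Without replicate 3 of 40 mM the rise was 0.25.

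CCND3 encodes cyclin D3, a second partner of CDK4 and CDK6 (ENSG00000112576, chromosome 6, 41934934 to 42050357). Its levels were 10.10, 9.98 and 10.01 FPKM without metformin, 10.5, 10.2 and 10.4 at 20 mM, and 13.0, 11.4 and 12.5 at 40 mM. The 40 mM libraries lay above all others. CCND3 rose at 40 against 0 mM by 0.26 ± 0.05 (adjusted p = 0.0012) and at 40 against 20 mM by 0.22 ± 0.05 (adjusted p = 0.0094). It was at 0.04 ± 0.05 at 20 against 0 mM (adjusted p = 0.54). CCND2, the third D-type cyclin, had 0 counts in 8 libraries and 4 counts in replicate 3 of 40 mM, a gene singled out after its values were seen.

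The kinases of the D cyclins moved in opposite directions at 40 mM. CDK4 (ENSG00000135446, chromosome 12, 57747727 to 57756013) was at 91.3, 93.8 and 86.2 FPKM without metformin, 86.9, 88.8 and 93.3 at 20 mM, and 82.8, 83.4 and 70.7 at 40 mM. All 40 mM libraries were below all others, and replicate 3 was the lowest. CDK4 fell at 40 against 0 mM (-0.23 ± 0.06, adjusted p = 0.0093) and at 40 against 20 mM (-0.21 ± 0.06, adjusted p = 0.026). Without replicate 3 of 40 mM the changes were -0.16 and -0.14, with adjusted p = 0.011 and 0.031. The call between 40 and 20 mM was lost without replicate 2 (-0.22, adjusted p = 0.064) or 3 (-0.18, adjusted p = 0.097) of 20 mM, with no filter (-0.23, adjusted p = 0.062) and by limma (-0.18 and -0.19, adjusted p = 0.067 at both pseudocounts), within a range from 0.005 to 0.097 over its alternatives. CDK4 was at -0.01 ± 0.06 at 20 against 0 mM (adjusted p = 0.88).

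CDK6, the homologous kinase (ENSG00000105810, chromosome 7, 92604921 to 92836573), was at 16.7, 16.2 and 16.4 FPKM without metformin, 18.9, 17.7 and 18.01 at 20 mM, and 22.05, 20.5 and 21.03 at 40 mM. The 3 doses did not overlap, and each stood above the one before. CDK6 rose at 20 against 0 mM by 0.14 ± 0.04 (adjusted p = 0.028), at 40 against 0 mM by 0.33 ± 0.04 (adjusted p = 8.3e-05) and at 40 against 20 mM by 0.19 ± 0.04 (adjusted p = 0.009). The 20 mM call was lost without replicate 2 (0.13, adjusted p = 0.099) or 3 (0.14, adjusted p = 0.074) of 0 mM, without replicate 1 (0.12, adjusted p = 0.0996) or 3 (0.15, adjusted p = 0.057) of 20 mM and with no filter (0.14, adjusted p = 0.07), within a range from 0.01 to 0.0996.

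CDKN1B, the gene of p27 (ENSG00000111276, chromosome 12, 12715058 to 12722369), was at 15.0, 14.4 and 14.9 FPKM without metformin, 17.4, 18.3 and 18.6 at 20 mM, and 17.8, 18.9 and 19.3 at 40 mM. Every treated library lay above every untreated one, and the treated doses overlapped. CDKN1B rose at 20 against 0 mM by 0.29 ± 0.05 (adjusted p = 0.0015) and at 40 against 0 mM by 0.30 ± 0.05 (adjusted p = 0.00035), and was at 0.01 ± 0.05 between 40 and 20 mM (adjusted p = 0.85). A gene of the same strand that overlaps it, AC008115, was listed at 1.44 to 4.01 FPKM over the 9 libraries. How reads were divided between AC008115 and CDKN1B was not stated in the sources used here.

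The E cyclins fell at both doses. CCNE1, cyclin E1 (ENSG00000105173, chromosome 19, 29811991 to 29824312), was at 6.87, 7.13 and 7.01 FPKM without metformin, 5.36, 5.91 and 5.76 at 20 mM, and 5.198, 5.66 and 5.48 at 40 mM. The treated libraries were all below the untreated ones and overlapped with each other. CCNE1 fell at 20 against 0 mM (-0.31 ± 0.07, adjusted p = 0.0072) and at 40 against 0 mM (-0.40 ± 0.07, adjusted p = 0.00062), and was at -0.09 ± 0.07 between 40 and 20 mM (adjusted p = 0.36).

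CCNE2, cyclin E2 (ENSG00000175305, chromosome 8, 94879770 to 94896678), was at 5.39, 5.08 and 5.53 FPKM without metformin, 3.78, 4.21 and 3.84 at 20 mM, and 2.52, 2.92 and 3.06 at 40 mM. The 3 doses did not overlap, each below the one before. CCNE2 fell at 20 against 0 mM (-0.44 ± 0.08, adjusted p = 0.0029), at 40 against 0 mM (-0.95 ± 0.09, adjusted p = 6e-06) and at 40 against 20 mM (-0.51 ± 0.09, adjusted p = 0.0017). It overlaps INTS8 (9.22 to 12.7 FPKM) and NDUFAF6 (2.86 to 3.27 FPKM) on the opposite strand. The libraries kept strand, per the labels' protocols, but whether the counting used it was not stated in the sources used here. Reads in the shared stretches are therefore uncertain, and the same holds for CCND1 with LTO1 (2.80 to 3.89 FPKM), for CDK4 with TSPAN31 (3.74 to 5.41 FPKM) and MARCHF9 (2.04 to 3.03 FPKM), and for CDK2 with PMEL (0.0324 to 0.258 FPKM).

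CDK2, the partner of the E cyclins (ENSG00000123374, chromosome 12, 55966781 to 55972789), changed least among the 10 at 40 against 0 mM. Its levels were 28.2, 30.3 and 29.2 FPKM without metformin, 28.4, 28.2 and 27.9 at 20 mM, and 26.1, 27.8 and 27.2 at 40 mM. The 40 mM libraries were just below the others. CDK2 fell at 40 against 0 mM (-0.15 ± 0.04, adjusted p = 0.0085), and was at -0.06 ± 0.04 at 20 against 0 mM (adjusted p = 0.32) and -0.09 ± 0.04 between 40 and 20 mM (adjusted p = 0.11).

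**Figure D2:**
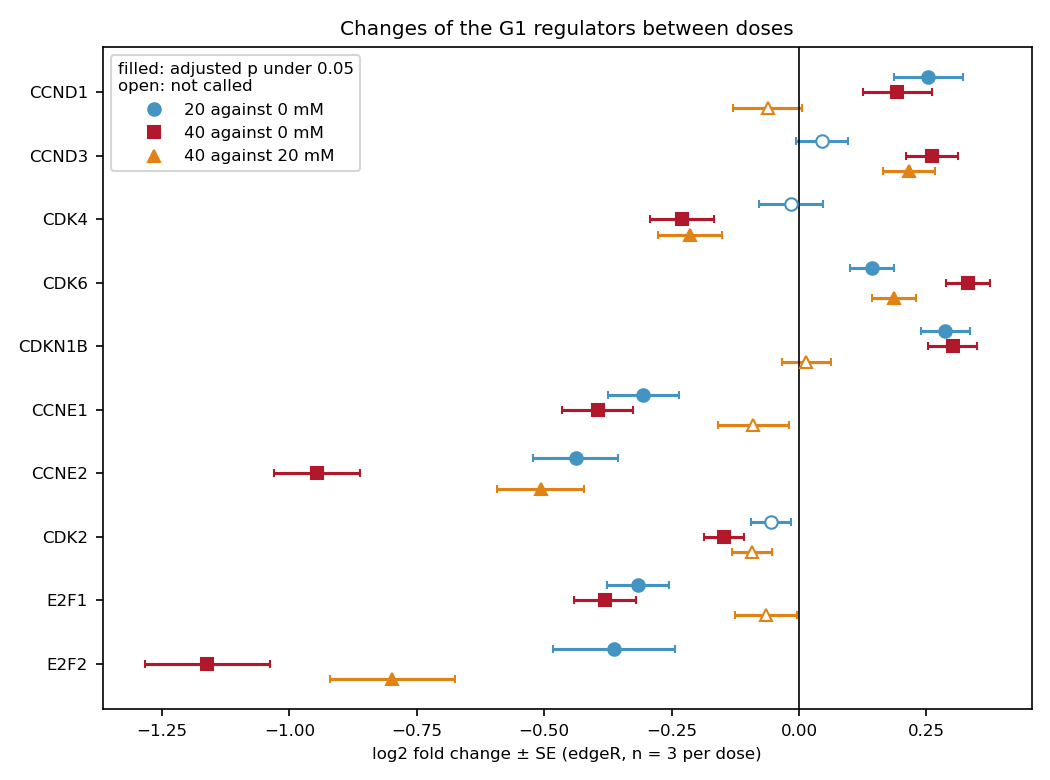
Log2 fold change ± SE (horizontal axis) of each gene (vertical axis) at 20 against 0 mM (circles), 40 against 0 mM (squares) and 40 against 20 mM (triangles), with filled symbols at an adjusted p under 0.05. E2F2 and CCNE2 reach -1.16 and -0.95 at 40 against 0 mM, and the other 8 genes lie between -0.40 and 0.33.

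E2F1 and E2F2 belong to the activator E2F factors, which drive the genes of S phase. Their promoters, picked with both falls known, are shown as a description. E2F factors are known to act on promoters of their own family. Each sequence is the stretch of 120 bases that ends just before the gene start, 5′ to 3′, from RefSeq on GRCh38.p14. Capitals mark matches on either strand to the E2F core motif, searched as TTTCGCG or as TTTGGCG or as TTTCCCG or as TTTGCCG.
E2F1, chr20:33686386-33686505, minus strand: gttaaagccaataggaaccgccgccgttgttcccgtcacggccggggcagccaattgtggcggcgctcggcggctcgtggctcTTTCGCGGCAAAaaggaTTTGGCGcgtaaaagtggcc
E2F2, chr1:23531234-23531353, minus strand: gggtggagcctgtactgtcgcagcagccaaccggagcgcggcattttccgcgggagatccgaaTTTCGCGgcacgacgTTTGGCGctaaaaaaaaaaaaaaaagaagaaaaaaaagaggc

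E2F1 holds 3 matches, TTTCGCG at -37 to -31 and TTTGGCG at -20 to -14 on the strand of the gene, and TTTGCCG on the other strand at -32 to -26, which overlaps the first. E2F2 holds TTTCGCG at -57 to -51 and TTTGGCG at -42 to -36. Positions count back from the base before the gene start, which is -1. Windows of 300 bases, from 250 before to 50 after the gene start, were at hand for 7 of the 10 regulators, and E2F1 and E2F2 were the 2 with a match. CCND1, CCNE2 and CDK2 had no window. The motif was found in 8.67% of all 35116 RefSeq windows and in 12.7% of the 12318 windows of tested genes. TTTGAA, the core of the cell cycle homology region of late cell cycle promoters, was in none of the 7, in 15.2% of all windows and in 10.4% of those of tested genes. A match is a stretch of letters, and binding was not measured.

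E2F1 (ENSG00000101412, chromosome 20, 33675477 to 33686385) was at 21.7, 22.2 and 20.7 FPKM without metformin, 16.8, 17.5 and 17.6 at 20 mM, and 17.6, 17.9 and 15.2 at 40 mM. The treated libraries were all below the untreated ones and overlapped with each other, with replicate 3 of 40 mM the lowest. E2F1 fell at 20 against 0 mM (-0.32 ± 0.06, adjusted p = 0.0031) and at 40 against 0 mM (-0.38 ± 0.06, adjusted p = 0.00035), and was at -0.07 ± 0.06 between 40 and 20 mM (adjusted p = 0.46). Without replicate 3 of 40 mM, the change at 40 against 0 mM was -0.31 and that between 40 and 20 mM was 0.0044.

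E2F2 (ENSG00000007968, chromosome 1, 23506438 to 23531233) had the lowest FPKM of the 10 and the largest change of them at 40 against 0 mM. It was at 2.04, 2.04 and 2.29 FPKM without metformin, 1.54, 1.73 and 1.68 at 20 mM, and 1.05, 1.06 and 0.801 at 40 mM. Behind these lie 918 to 1039 counts at 0 mM, 703 to 762 at 20 mM and 326 to 490 at 40 mM. The 3 doses did not overlap, each below the one before. E2F2 fell at 40 against 0 mM (-1.16 ± 0.12, adjusted p = 1.8e-05) and at 40 against 20 mM (-0.80 ± 0.12, adjusted p = 0.0011), and the values were -1.05 and -0.68 without replicate 3 of 40 mM. The fall at 20 against 0 mM (-0.36 ± 0.12, adjusted p = 0.041) was lost without any 1 of the 6 libraries compared. Without replicates 1, 2 and 3 of 20 mM it was -0.32, -0.40 and -0.38 (adjusted p = 0.12, 0.073 and 0.084), and without replicates 1, 2 and 3 of 0 mM it was -0.38, -0.40 and -0.31 (adjusted p = 0.074, 0.073 and 0.13). The range of adjusted p over its alternatives was 0.0082 to 0.13, and the call was also lost with no filter (adjusted p = 0.095), in limma with the smaller pseudocount (0.055) and with the replicate block (0.053).

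By their estimates alone, the genes varied in how much of the change at 40 mM was already present at 20 mM. These shares have no SE, and differences between the genes were not tested. The log2 change at 20 mM was 132% of that at 40 mM for CCND1, 95.2% for CDKN1B, 82.9% for E2F1 and 77.3% for CCNE1. It was 46.4% for CCNE2, 43.5% for CDK6, 37.5% for CDK2 and 31.3% for E2F2, and 17.2% for CCND3 and 6.53% for CDK4. CDK2, CCND3 and CDK4 were not called at 20 against 0 mM, and the log2 change of CDK4 there ran from -0.051 to 0.0087 without single libraries, so that its share has no settled size or sign. Whether the step to 40 mM differed from the step to 20 mM was tested in the same edgeR fit, which called 6.83% of all tested genes, 2.73% higher and 4.11% lower, and 0 of the 10 regulators. At an unadjusted p under 0.05 there were 3, namely CDKN1B at -0.27 ± 0.08 (adjusted p = 0.081), CCND1 at -0.32 ± 0.12 (adjusted p = 0.13) and E2F1 at 0.25 ± 0.11 (adjusted p = 0.19), each the second step minus the first. DESeq2 and limma also called 0. Without replicate 3 of 40 mM, E2F1 (0.32, adjusted p = 0.018, range 0.018 to 0.46) and CDKN1B (-0.30, adjusted p = 0.031, range 0.031 to 0.29) were called.

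Ratios between related genes within a library do not depend on how libraries are scaled, and 4 were compared across the 3 dose pairs, 12 comparisons in all. With 3 against 3 libraries the two-sided exact permutation test cannot go below p = 0.1, so no ratio could pass 0.05. The CCNE2 to CCNE1 ratio was 0.785, 0.7125 and 0.789 in untreated cells, 0.705, 0.7121 and 0.667 at 20 mM, and 0.485, 0.515 and 0.558 at 40 mM. The 40 mM libraries lay well below the others, while those of 20 and 0 mM nearly touched, and the difference in mean log2 ratio at 40 against 0 mM was -0.55 ± 0.08 (SE, exact p = 0.1, adjusted p = 0.12). In FPKM, CCNE1 thus stood above CCNE2 by 1.93 to 1 at 40 mM, against 1.31 to 1 at 0 mM. Which had more transcripts is not settled, as this order rests on the gene lengths used. By counts, CCNE2 lay above CCNE1 at 0 mM, at 1845 to 2018 against 1431 to 1450.

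The CDK6 to CDK4 ratio was 0.183, 0.173 and 0.190 in untreated cells, 0.218, 0.199 and 0.193 at 20 mM, and 0.266, 0.246 and 0.298 at 40 mM. No dose overlapped with another, and the difference at 40 against 0 mM was 0.56 ± 0.09 on the log2 scale (exact p = 0.1, adjusted p = 0.12). In FPKM, CDK4 stayed above CDK6, by 3.72 to 1 at 40 mM, against 5.49 to 1 at 0 mM. This order too rests on the gene lengths used. By counts, CDK6 at 40 mM (19067 to 22834) overlapped with CDK4 (16204 to 21834).

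The E2F2 to E2F1 ratio was 0.094, 0.0919 and 0.111 in untreated cells, 0.092, 0.0988 and 0.0955 at 20 mM, and 0.0595, 0.0591 and 0.0528 at 40 mM. The 40 mM libraries were below all others, while 20 and 0 mM overlapped. The difference was -0.79 ± 0.10 at 40 against 0 mM (exact p = 0.1, adjusted p = 0.12) and -0.05 ± 0.09 at 20 against 0 mM (exact p = 0.9). The CCND3 to CCND1 ratio was lowest at 20 mM, with differences of -0.21 ± 0.06 at 20 against 0 mM (exact p = 0.1), 0.07 ± 0.09 at 40 against 0 mM (exact p = 0.5) and 0.28 ± 0.09 at 40 against 20 mM (exact p = 0.1).

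**Figure D3:**
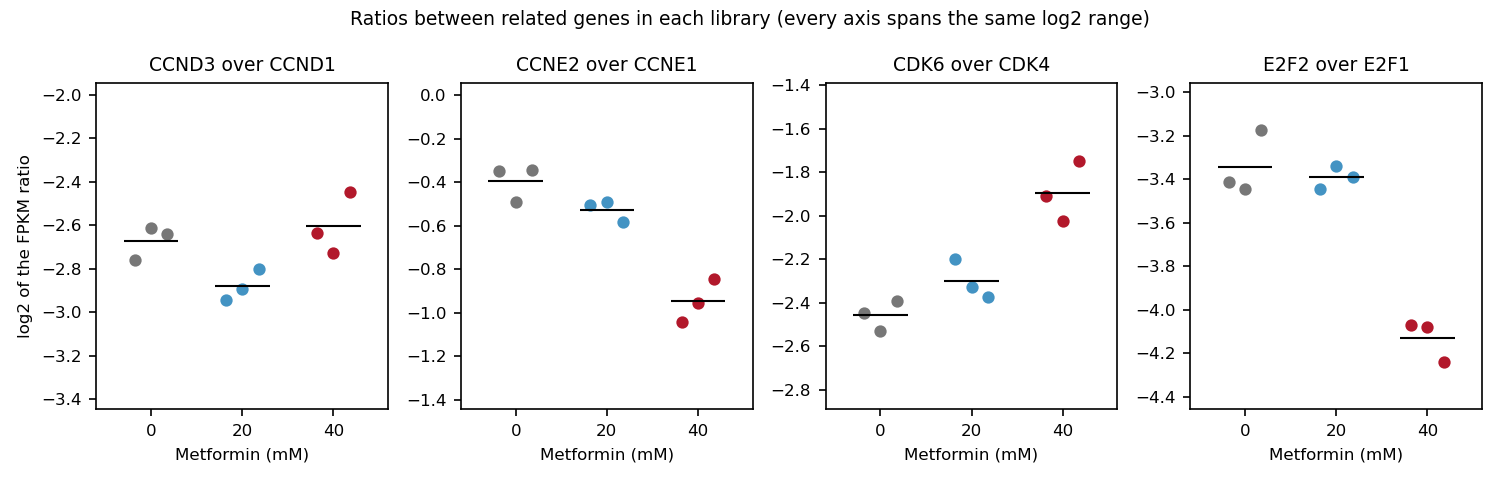
Log2 of the FPKM ratio (vertical axis, the same span in every panel) of 4 pairs of related genes at 0, 20 and 40 mM metformin (horizontal axis). Points are libraries in order of replicate number and lines their means. CCNE2 over CCNE1 and E2F2 over E2F1 are lowest at 40 mM, CDK6 over CDK4 is highest there, and CCND3 over CCND1 is lowest at 20 mM.

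Genes that E2F factors are known to activate fell as well. Of 25 E2F target genes, all tested, 24 fell and 1 rose at 40 against 0 mM, when 27.4% of all tested genes were called lower, with a median of -0.52. The 20 mM dose gave 18 calls against 0 mM, all lower, against 15.2% of all tested genes called lower, with a median of -0.26. The replication helicase subunit MCM5 fell at 40 against 0 mM (-0.86 ± 0.04, adjusted p = 1.3e-07), as did thymidylate synthase TYMS (-1.08 ± 0.06, adjusted p = 2.8e-07). MCM5 averaged 7.36 ± 0.258 FPKM at 40 mM and 13.1 ± 0.348 at 0 mM, and TYMS 49.4 ± 4.59 at 40 mM and 102.2 ± 2.24 at 0 mM (SD, n = 3 each). TYMS also fell at 20 against 0 mM (-0.67 ± 0.06, adjusted p = 2.6e-05). The E2F core motif was in the windows of 14 of the 22 target genes that had one. In the lists described below it was in 6 of 14 genes of CDK activation and turnover. It was in 1 of 7 later cyclins and other CDKs, 1 of 7 ERK pathway output genes and 1 of 5 other CDK inhibitors. These counts are per gene, while the 12.7% given above for tested genes is per window.

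Among the RB family and the other E2F factors and their partners, 6 of 11 fell and 3 rose at 40 against 0 mM, with a median of -0.26, when 27.4% of all tested genes fell and 28.8% rose. The 20 mM dose gave 2 falls and 3 rises against 0 mM, with a median of -0.08, when 15.2% of all tested genes fell and 16.3% rose. The atypical E2F repressors parted ways, as E2F8 fell at 40 against 0 mM (-1.25 ± 0.11, adjusted p = 4.9e-06) and E2F7 rose by 0.67 ± 0.05 (adjusted p = 2.8e-06). E2F8 averaged 1.21 ± 0.0489 FPKM at 40 mM and 2.83 ± 0.222 at 0 mM, and E2F7 averaged 10.5 ± 0.461 at 40 mM and 6.43 ± 0.260 at 0 mM. TFDP1, a dimerization partner of E2F factors, fell at 40 against 0 mM (-0.44 ± 0.04, adjusted p = 9.1e-06). TFDP2, a second such partner in this list, rose there by 0.42 ± 0.06 (adjusted p = 0.00017), a gene singled out after its values were seen. The motif was in the windows of 5 of the 9 genes of this list that had one.

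Among other CDK inhibitors, the calls against 0 mM were lower. Of 4 tested, 2 fell at 40 against 0 mM, when 27.4% of all tested genes fell, and 3 at 20 against 0 mM, when 15.2% fell, with medians of -0.29 and -0.36. Between 40 and 20 mM 1 was called, CDKN1A, the gene of p21, singled out after its values were seen. CDKN1A rose there by 0.29 ± 0.08 (adjusted p = 0.018), a call lost without replicate 2 or 3 of 20 mM, without replicate 1 of 40 mM and with no filter. It averaged 32.8, 26.0 and 32.5 FPKM at 0, 20 and 40 mM. CDKN1C, the gene of p57, fell at 40 against 0 mM (-1.97 ± 0.15, adjusted p = 1.9e-06), at 0.742 ± 0.0763 FPKM at 40 mM and 2.88 ± 0.123 at 0 mM. CDKN2C, whose product p18 binds CDK4 and CDK6, also fell (-0.54 ± 0.08, adjusted p = 0.00028). Of 6 later cyclins and other CDKs tested, 4 fell at 40 against 0 mM and 3 at 20 against 0 mM, beside the same 27.4% and 15.2% of all tested genes, with medians of -0.30 and -0.07. Cyclin F (CCNF) fell at 40 against 0 mM (-0.42 ± 0.04, adjusted p = 6.1e-06), the S and G2 phase cyclin CCNA2 (-0.34 ± 0.04, adjusted p = 4.3e-05) and the mitotic cyclin CCNB1 (-0.48 ± 0.06, adjusted p = 7e-05).

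**Figure D4:**
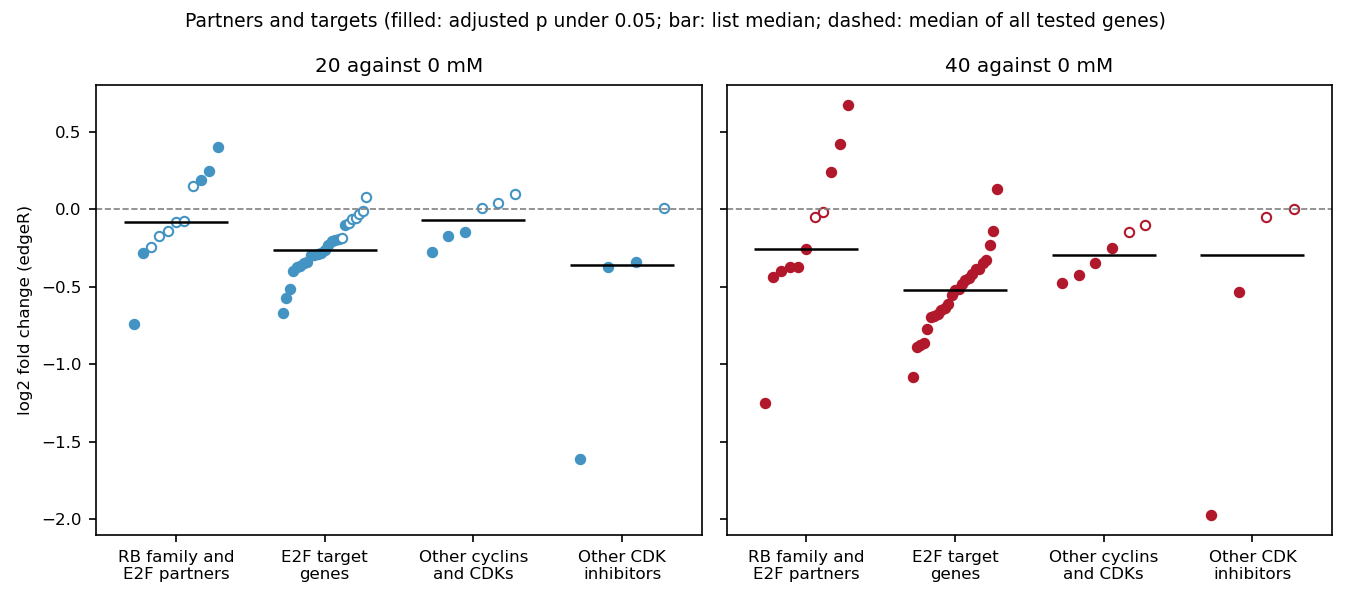
Log2 fold change (vertical axis) of the tested genes of 4 lists (horizontal axis) at 20 against 0 mM (left) and 40 against 0 mM (right). Filled points were called, bars are list medians and the dashed line is the median of all tested genes, 0.00. The median of the E2F target genes is -0.26 at 20 mM and -0.52 at 40 mM.

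The genes whose log2(FPKM + 1) followed a regulator most closely over the 9 libraries, among 6975 with a mean of at least 5 FPKM, were ranked by Pearson's r as a description, since all share libraries and dose. CCND1 was followed by LEPROTL1 (r = 0.983), TXNRD1 (0.960) and RPF2 (0.948). CCNE2 was followed by KNSTRN (r = 0.992), SOX5 (0.991) and SLC35B4 (0.991). E2F1 was followed by C8orf33 (r = 0.995), IMP3 (0.987) and MRPS6 (0.987). CDKN1B was followed by PKD1P6 (r = 0.994), a pseudogene with near-identical copies whose level is uncertain, IGFBP3 (0.986) and TAX1BP1 (0.985).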

How the data were processed

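Polyadenylated RNA of A375 cells was sequenced as strand-specific paired-end libraries, per the labels' protocols. The deposited table gives read counts and FPKM per gene and library, per the file headers. The submitters' processing notes list StringTie 2.1.6 without a role. The aligner, build, annotation and strand setting of the counting were not given in the sources used here, and positions are as deposited. Counts (65738242 to 75629413 per library) were scaled by TMM, and genes with a mean of at least 1 FPKM (98.74% of counts) were tested with edgeR 4.0.16 in 1 fit over all 9 libraries in R 4.3.3. The SE is the change over the square root of F. At this depth the spread between libraries limits precision. The code was tested on simulated data. Ratios of FPKM used exact permutation tests (scipy 1.17.1).

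The members, the 6 gene lists, the markers and the motifs were chosen with earlier results of these data known. From each list the text names up to 3 called members with the smallest p at 40 against 0 mM. A gene named by this rule is not reported here. For CCND1, CCNE2, E2F1 and CDKN1B it names the 3 non-members with the highest r. Alternatives were no filter, a filter at 5 FPKM, median of ratios or upper quartile scaling, DESeq2 1.42.0, limma 3.58.1 on log2(FPKM + 1) or log2(FPKM + 0.1), only the 6 libraries compared, a replicate block, and leaving out each library in turn.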

Additional observations from a re-analysis of the deposited data

How the results depend on the processing

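Under median of ratios scaling, upper quartile scaling and DESeq2, all 10 regulators had the same direction and side of the threshold in each comparison of doses as in the main test. Over all alternatives, 498 of 534 values of single regulators did so, 29 lost their call and 7 changed sign without being called. The sign changes were CDK4 at 20 against 0 mM (0.00017 with the filter at 5 FPKM, -0.051 to 0.0087 without single libraries), and, between 40 and 20 mM, E2F1 (-0.11 to 0.0044) and CDKN1B (-0.014 to 0.048) without single libraries. CCNE2 ran from -0.13 to 0.029 in the step test, and CCNH from -0.076 to 0.034 at 20 against 0 mM. The causes were not tested.

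Regulators called at 20 against 0 mM numbered 4 with no filter and 4 to 7 without single libraries, 4 of them without replicate 2 or 3 of 0 mM or replicate 1 of 20 mM. At 40 against 0 mM, 8 to 10 were called over all alternatives. Between 40 and 20 mM, 3 were called with the filter at 5 FPKM, which does not test E2F2 and CCNE2. In the step test 0 to 2 were called without single libraries. All genes called with that filter numbered 4245 at 40 against 0 mM, and 2517 (20 against 0) and 2367 (40 against 20), as fewer genes were tested. Between 40 and 20 mM there were 2420 to 4056 without single libraries, the lowest without replicate 2 of 20 mM. There, limma called 2112 higher and 1416 lower on log2(FPKM + 1), and 2076 and 1418 on log2(FPKM + 0.1), against 1770 and 1867 in edgeR. The E2F2 to E2F1 difference at 20 against 0 mM was 0.062 with a pseudocount of 1 and -0.099 to 0.037 without single libraries, and the CCND3 to CCND1 difference at 40 against 0 mM was -0.012 to 0.13 without single libraries.

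With the replicate number as a block, 4245, 7215 and 3982 genes were called at 20 against 0, 40 against 0 and 40 against 20 mM, with 6, 10 and 5 regulators, and 1 regulator, CCND1, in the step test (-0.32, adjusted p = 0.025). Deviations of same-numbered libraries correlated at -0.101 to 0.186, and not every library correlated best with its own number, so the numbers were not read as pairs.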

Other observations

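ERK pathway output genes, which report on the signal that is known to sustain cyclin D1 in cells with mutant BRAF, rose in 7 of 12 tested cases and fell in 2 at 40 against 0 mM, with a median of 0.16, when 28.8% of all tested genes rose and 27.4% fell. The 20 mM dose gave 4 calls against 0 mM, all higher, with a median of 0.08, when 16.3% of all tested genes rose. Between 40 and 20 mM, 3 rose and 2 fell, with a median of -0.08, when 14.3% of all tested genes rose and 15.1% fell. That count of 5 calls was 1 to 5 without single libraries. FOSL1, a subunit of the AP-1 transcription factor, rose at 40 against 0 mM by 0.63 ± 0.08 (adjusted p = 5.5e-05), the receptor kinase EPHA2 by 0.58 ± 0.08 (adjusted p = 0.00012) and PHLDA1 by 0.19 ± 0.04 (adjusted p = 0.0011). The ERK pathway inhibitors SPRY2 (-0.18 ± 0.05, adjusted p = 0.012) and SPRY4 (-0.19 ± 0.06, adjusted p = 0.023) were the 2 that fell, and the phosphatases DUSP4 (-0.08 ± 0.04, adjusted p = 0.063) and DUSP6 (-0.08 ± 0.06, adjusted p = 0.28) were not called, all 4 named after their values were seen.

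Genes that activate CDKs or take part in the turnover of cyclins and p27 fell in 6 of 15 cases and 1 rose at 40 against 0 mM, with a median of -0.05. These 7 calls are not more than the 56.2% of all tested genes called. By direction, 27.4% of all tested genes fell and 28.8% rose. The falls in this list numbered 4 by limma at both pseudocounts and without replicate 1 of 0 mM or replicate 2 of 40 mM. Without replicate 3 of 40 mM, 6 fell and 3 rose, so no lean of the list is read from these few calls. At 20 mM 2 rose and 2 fell against 0 mM, beside 31.6% of all tested genes called, with 2 called in all without replicate 2 of 0 mM or replicate 2 or 3 of 20 mM. The CDK-activating kinase CDK7 rose at 40 against 0 mM by 0.43 ± 0.05 (adjusted p = 5.8e-05), while its cyclin partner CCNH fell (-0.38 ± 0.06, adjusted p = 0.00025). CDK7 averaged 34.3 ± 2.26 FPKM at 40 mM and 24.8 ± 0.524 at 0 mM, and CCNH 8.60 ± 0.395 at 40 mM and 10.9 ± 0.306 at 0 mM (SD, n = 3 each). CUL1, the scaffold of the ubiquitin ligases that mark p27 and cyclin E for removal, fell at 40 against 0 mM (-0.18 ± 0.04, adjusted p = 0.0034).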
